A study of Rattus norvegicus with 22 samples.

Results

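Epithelial and homeostatic chemokines, with their receptors, were examined in tongue cancers and matched normal tongue of rats. The genes were Ccl20 and its receptor Ccr6, Ccl28 and Ccl27 with their shared receptor Ccr10, Cxcl14, Cxcl17, and Cxcl12 with its receptor Cxcr4. They were found by gene name among the non-control probes of the array. All 9 genes were present, none was absent, and 11 probes for them were read out of 30367 probes for 19167 symbols. Each gene is described by its brightest probe over 22 arrays, and for Ccl20 and Cxcl12 the other probe is given as well.

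The tissue came from 11 male F344 rats of approximately 33 weeks of age. All 11 had received the carcinogen 4-nitroquinoline-1-oxide (4-NQO) in drinking water at 20 ppm for 10 weeks, and tongues were taken at 23 to 26 weeks after the first exposure. From every rat a piece of oral squamous cell carcinoma (OSCC) was paired with a piece of phenotypically normal tissue beside it, so the normal group shared the carcinogen and was not an unexposed control. The labels go against this in part: the titles call all 22 arrays untreated and the normal pieces carry a treatment of none, whereas the deposited protocol takes both pieces from the same treated tongues, and that description is used here. Animals are named by the number in the titles. RNA of each whole piece was read on a single-color Agilent array, so that fewer cells of a type and less RNA per cell cannot be told apart.

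Chemokines are small secreted proteins that direct the movement of cells carrying the matching G protein-coupled receptor. Epithelia make several of them without infection: Ccl27 is typical of skin keratinocytes, Ccl28 of mucosal and exocrine gland epithelium, Cxcl17 of mucosal surfaces, and Cxcl14 of many resting epithelia, while Cxcl12 comes mainly from stromal and endothelial cells and holds Cxcr4-bearing leukocytes in tissues. Ccl20 is the inducible member, made by epithelium under IL-17, IL-1 and TNF, and it attracts Ccr6-bearing T cells, B cells and dendritic cells.

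Signal is given as log2 of the processed signal relative to the 75th percentile of its own array, where 0 is that percentile, and a level of 1 probe is not compared with that of another. A probe was called where limma gave an adjusted p below 0.05 over all probes and the change was at least 2-fold. Of all probes 2083 were called higher and 2118 lower in OSCC, or 1541 and 3154 when arrays were scaled to their median. The median log2 difference of all probes was -0.24, and it lay between -0.44 and -0.03 under the other scalings. Between 48.42% and 56.1% of probes were well above background on the normal arrays and between 52.28% and 65.49% on the OSCC arrays. Of 12 stratified epithelium genes, which mark the tongue surface, 11 were well above background on all 22 arrays. Of 10 skeletal muscle genes 7 fell and 1 rose in OSCC, with a median log2 difference of -1.86. Normal and OSCC pieces lay on different slides, 3 and 4 in number. All 11 normal arrays shared a scan day with 2 OSCC arrays, of animals 4 and 9, and the remaining 9 from OSCC had another, so for 9 animals the scan day and the tissue cannot be told apart.

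Of the 9 genes, 3 were called higher in OSCC (Ccl28, Cxcl17 and Cxcr4) and 0 were called lower by limma. Over all probes 6.86% were called higher and 6.97% lower. Before adjustment, at p below 0.05 with any fold, limma gave 6 genes higher and, in the opposite direction, Ccl27 and Ccr10, 2 in all. The methods' t-test with the 2-fold limit called 0 lower at either p, which followed from the fold limit alone. With any fold, its unadjusted p was 0.0028 for Ccr10 (adjusted 0.013) and 0.031 for Ccl27 (adjusted 0.066), both lower. With scan day as a further term 3 probes in all and 0 of the 9 genes were called by limma. The other Ccl20 probe, which is not counted among the 9, was called higher too. At an adjusted p below 0.05 with any fold, the probes of Cxcl14 (higher) and Ccr10 (lower) also passed, as did the second Cxcl12 probe (lower), against 16.2% of all probes higher and 27.9% lower at that limit.

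**Figure D1:**
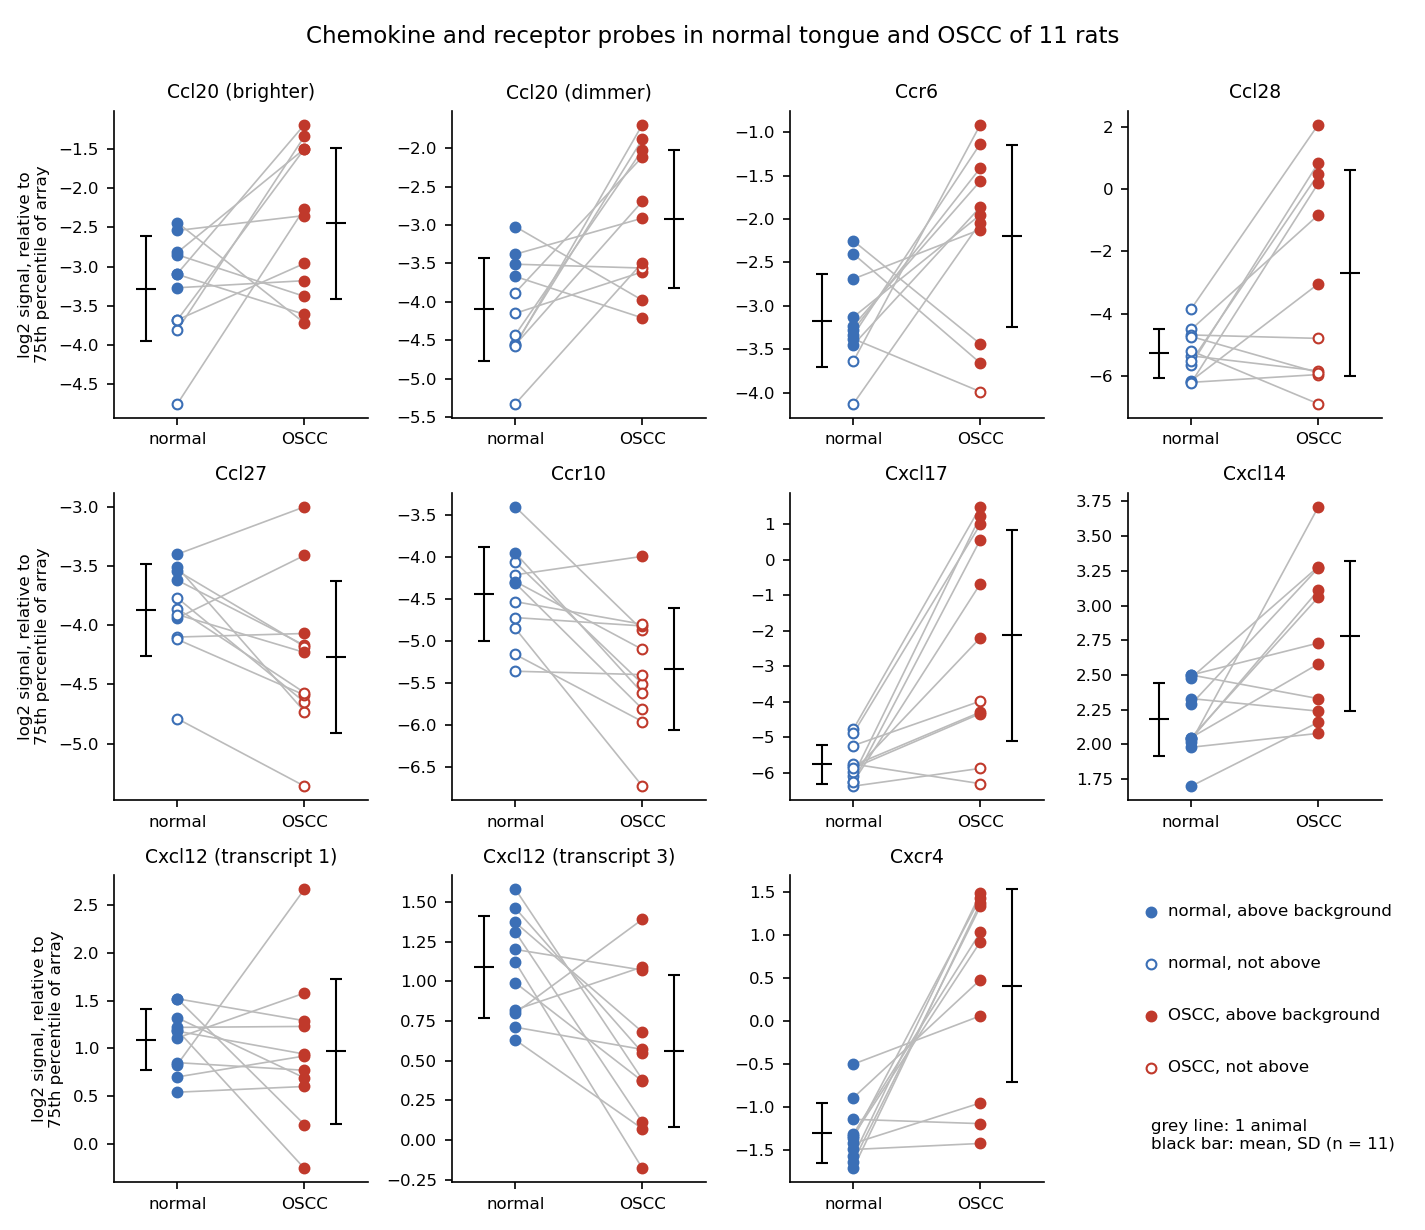
Log2 signal relative to the 75th percentile of the array (y axis, own scale in each panel) of the 11 probes in normal tissue and OSCC; each grey line joins the 2 pieces of 1 animal, open points were not well above background, and black bars are the mean and SD of 11. The Ccl28 and Cxcl17 points of normal tissue are all open, and 8 OSCC points of Cxcr4 lie above every normal point.

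Ccl20 and Ccr6, the chemokine that epithelium makes under IL-17 and the only chemokine receptor it uses, were higher in OSCC of 8 of 11 animals and lower in the same 3 animals, 17, 22 and 24. Neither the brighter Ccl20 probe nor Ccr6 was called. The Ccl20 probes lie on chromosome 9 of the rat, at chr9:82443354-82443413 for the brighter and chr9:82443347-82443406 for the dimmer (rn4), and overlap in 53 of their 60 bases, so they are not separate measurements of the gene. Their first 30 bases are shown because the probes differ by a shift of 7 bases alone, with the 23 bases that both lines hold in capitals.
Ccl20 dimmer probe: tgaagggCGCTTAGTAAAAGGTTCAATATT
Ccl20 brighter probe: CGCTTAGTAAAAGGTTCAATATTatgttta

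With the brighter probe, Ccl20 in normal tissue had a lowest, median and highest log2 signal of -4.75, -3.10 and -2.44. In OSCC these were -3.72, -2.35 and -1.19. The groups overlapped, with 6 OSCC pieces above every normal piece and the OSCC of animals 16, 17, 22, 24 and 26 inside the normal range. The mean was -3.28 ± 0.67 (SD, n = 11) in normal tissue and -2.45 ± 0.96 in OSCC, a log2 difference of 0.82 ± 0.37 (SE) or 1.77-fold with a limma adjusted p of 0.081. With the dimmer probe the difference was 1.17 ± 0.37, 2.26-fold, with a limma adjusted p of 0.025. That probe was detected well above background on 4 arrays of normal tissue and 10 of OSCC, against 8 and 11 for the brighter, and its call was lost when any of animals 4, 9, 11, 13, 25 or 26 was left out, where the log2 difference stayed between 1.0 and 1.39 over all 11 omissions. It was lost too with quantile normalization (limma adjusted p 0.071), with array medians (0.97 log2 units, under 2-fold) and with slide as a random block (limma adjusted p 0.057). Normexp background correction gave 0.44 (limma adjusted p 0.27). In the pairs scanned on different days the difference was 0.93 (limma adjusted p 0.12), again not called. The pair differences of the probes had an r of 0.94 over 11 pairs, given as a description, and the dimmer minus the brighter difference was 0.35 ± 0.48 (SD), between -0.62 and 1.12.

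Ccr6 (chr1:47115503-47115562, rn4) had a lowest, median and highest log2 signal of -4.13, -3.28 and -2.25 in normal tissue. In OSCC the values were -3.99, -1.95 and -0.91. The OSCC of 8 animals stood above every normal piece, and the 3 that did not, of animals 17, 22 and 24, lay among the lower normal pieces. The log2 difference was 0.99 ± 0.39 (SE), or 1.98-fold, with a limma adjusted p of 0.054, so it was under both limits by a small margin. Without animals 21, 22 and 24 the difference was 1.59 with a limma adjusted p of 0.0026 for Ccr6, and 1.33 with 0.0091 for the brighter Ccl20 probe. The authors named these 3 as examples of variable expression on these same arrays. Animals 22 and 24 had the lower signal of both genes in OSCC, so leaving them out raises both differences and is no separate evidence. Scaled to the probes detected on all arrays, Ccr6 was called (1.07, limma adjusted p 0.049). Left out 1 at a time, animals 17, 22 and 24 each brought Ccr6 past the limits, and animal 22 did so for Ccl20. In animals 4 and 9, with both tissues scanned on 1 day, the differences were 2.18 and 2.49 for Ccl20 and 1.19 and 1.87 for Ccr6. In the 9 other pairs the mean log2 difference was 0.49 for Ccl20 and 0.87 for Ccr6.

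Of 16 genes described here that act upstream of Ccl20, 6 rose in OSCC and 10 were not called, with a median log2 difference of 0.82 against -0.24 over all probes. Il1b, an inflammatory cytokine, rose by 4.17 ± 0.73 on the log2 scale (SE, limma adjusted p 0.0013). Il1a rose by 3.07 ± 0.59 and Tnf, which was well above background on only 3 normal arrays, by 2.11 ± 0.52. Il17a, the cytokine of Ccr6-bearing T cells, was well above background in 0 normal and 7 OSCC pieces. Against the dimmest signal well above background on each normal array, its OSCC mean was 1.7-fold higher. Il23a, which sustains those cells, rose by 1.2 ± 0.31, and Nfkbiz, a nuclear partner of NF-kB in the IL-17 response, by 1.04 ± 0.32. Averaged over the list, the upstream genes differed least in animals 21 (0.30), 22 (0.06) and 24 (-0.34), and most in animal 11 (2.51).

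The Ccl20 promoter is shown because NF-kB, which the upstream genes feed, is a known activator of this gene. The RefSeq table held 8 of the 9 promoters, all but that of Ccr10. In the 300 bases from 250 before to 50 after the start site, an NF-kB type motif, GGG followed by NN and then TTTCC, was searched on both strands. Ccl20 had 1 match, on the minus strand with its first base at -89, and the other 7 promoters had none, while 512 of 33469 promoters (1.53%) held it. The sequence is that of GRCr8, chr9:91836909-91837208 on the plus strand, a later build than the probe positions, with the match in capitals.
Ccl20 promoter: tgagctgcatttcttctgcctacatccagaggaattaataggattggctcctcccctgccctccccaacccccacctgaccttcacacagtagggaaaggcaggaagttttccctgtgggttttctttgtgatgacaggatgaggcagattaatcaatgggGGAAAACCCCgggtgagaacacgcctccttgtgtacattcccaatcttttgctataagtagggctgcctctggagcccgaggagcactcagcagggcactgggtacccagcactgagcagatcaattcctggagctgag

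Ccl28, the mucosal and gland chemokine that draws antibody-secreting cells to those surfaces, was called higher in OSCC, and in 5 animals the difference was above 3.6 log2 units. It was measurable in OSCC of 6 animals only. Its relative Ccl27 and their receptor Ccr10 were dim in both tissues and not called. Ccl28 (chr2:51712871-51712930, rn4) was well above background on 0 normal arrays, where the log2 signal had a lowest, median and highest value of -6.21, -5.35 and -3.84. In OSCC these were -6.89, -3.04 and 2.07. The OSCC pieces of animals 4, 9, 16, 17, 21 and 24 lay above every normal piece, and the other 5, of animals 11, 13, 22, 25 and 26, were not above background and lay among or below the normal pieces. The difference of the means was 2.58 ± 0.89 log2 units (SE) with a limma adjusted p of 0.035. Because normal tissue gave no measured level, the change is given as a bound, 2.3-fold higher in OSCC. It was computed against the dimmest signal that was well above background on each normal array. The 5 OSCC pieces not above background entered at their own signal, so the bound is not a strict lower limit.

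The Ccl28 call rested on the animals with a high value. It was lost without any of animals 4, 9, 16, 17 or 24, with log2 differences between 2.19 and 3.01 over all 11 omissions. With slide as a random block the limma adjusted p was 0.098, and with normexp background correction the difference was 0.95 with a limma adjusted p of 0.31. That correction adds an offset of 50 units to each spot, which by itself draws the differences of dim probes toward 0. The offset was not varied, and its part in the lost calls was not tested. The methods' t-test gave an adjusted p of 0.060, and without animals 21, 22 and 24 limma gave a difference of 2.33 with an adjusted p of 0.080. In animals 4 and 9, scanned on 1 day, the differences were 3.67 and 6.47, and in the 9 other pairs their mean was 2.03 (limma adjusted p 0.15).

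Ccl27 (chr5:59199811-59199870, rn4), the skin keratinocyte chemokine, was well above background on 5 arrays of each tissue. The lowest, median and highest log2 signals were -4.79, -3.86 and -3.40 in normal tissue and -5.36, -4.23 and -3.00 in OSCC. The groups overlapped almost whole, with 1 OSCC piece above and 1 below every normal piece. Ccl27 had a log2 difference of -0.40 ± 0.16 (SE, limma adjusted p 0.06), with OSCC lower in 8 of 11 animals.

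Ccr10 (chr10:90194383-90194442, rn4), the receptor for both, was well above background in 3 normal and 2 OSCC pieces. Its lowest, median and highest log2 signals were -5.36, -4.31 and -3.40 in normal tissue and -6.73, -5.40 and -3.99 in OSCC. The OSCC of 6 animals lay below every normal piece, none lay above, and animal 9 alone had the higher signal in OSCC. The log2 difference of -0.89 ± 0.22 (SE) had a limma adjusted p of 0.0074 but was 1.85-fold lower, under the 2-fold limit. It passed that limit when arrays were scaled to their median (-1.09) and without animal 9 (-1.0). With normexp background correction the difference was -0.21 (limma adjusted p 0.97). Most of these signals were not above background.

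Cxcl17, the mucosal chemokine, was called higher in OSCC, while Cxcl14 was bright in both tissues and higher in OSCC by less than 2-fold. Cxcl17 (chr1:80683134-80683193, rn4) was well above background in 0 normal and 8 OSCC pieces. The lowest, median and highest log2 signals were -6.37, -5.86 and -4.77 in normal tissue and -6.30, -2.20 and 1.48 in OSCC. The OSCC of 9 animals lay above every normal piece and 2, of animals 21 and 22, lay inside the normal range. OSCC was higher in 10 of 11 animals by up to 7.3 log2 units, in animal 9, and was lower by 0.55 in animal 22 (-0.55). Cxcl17 had a log2 difference of 3.62 ± 0.77 (SE, limma adjusted p 0.0036), and the bound was 3.41-fold higher in OSCC. OSCC pieces not above background entered this bound at their own signal too. The call held without any 1 animal, with differences between 3.25 and 4.04, and with slide as a random block (limma adjusted p 0.018). It was lost with normexp background correction (1.17, limma adjusted p 0.16). In animals 4 and 9 the differences were 5.58 and 7.3, and in the 9 pairs scanned on different days the mean was 2.99 (limma adjusted p 0.023).

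Markers of gland epithelium were measured beside Cxcl17 and Ccl28. Of 14 gland genes that the array holds, 13 rose and 0 fell in OSCC, with a median log2 difference of 5.88, or 4.92 with genes unmeasured in normal tissue at their bound, and limma gave 0 lower at an unadjusted p below 0.05. Their mean log2 signal ranged from -5.67 to -3.91 in normal tissue and from -3.70 to 6.81 in OSCC. Of these genes 8 were above background on 0 normal arrays, among them Bpifa1, Prb1, Aqp5 and Pigr, the receptor that carries IgA across gland and mucosal epithelium. The bound for Pigr was 3.87-fold higher in OSCC, with OSCC pieces not above background at their own signal. Vegp1 and Vegp2, lipocalins of the serous lingual glands, rose by 9.69 ± 1.4 and 9.41 ± 1.31 on the log2 scale. They were well above background on only 2 and 4 normal arrays, so the sizes of these rises rest largely on normal signals at background.

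The mean gland difference was 8.90, 10.36, 10.78, 11.77 and 10.60 in animals 4, 9, 16, 17 and 24. In those animals Cxcl17 differed by 5.58, 7.3, 6.24, 5.89 and 6.81 and Ccl28 by 3.67, 6.47, 6.01, 5.91 and 6.40. In the other 6 animals the gland mean was between 0.82 and 4.83, Cxcl17 between -0.55 and 3.76 and Ccl28 between -1.70 and 3.12. The gland values fell into these separate clusters, so no correlation over all pairs is given. Within the 6 lower pairs, Cxcl17 and the gland list had a Pearson r of 0.21 (exact permutation p 0.69, adjusted 0.69) and a Spearman rho of -0.09 (exact permutation p 0.92), and r was 0.49 in the 4 pairs left without animals 25 and 26. For Ccl28 the clusters left too few pairs, and the relation could not be tested. The part of gland tissue in the Cxcl17 and Ccl28 results was not tested.

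**Figure D2:**
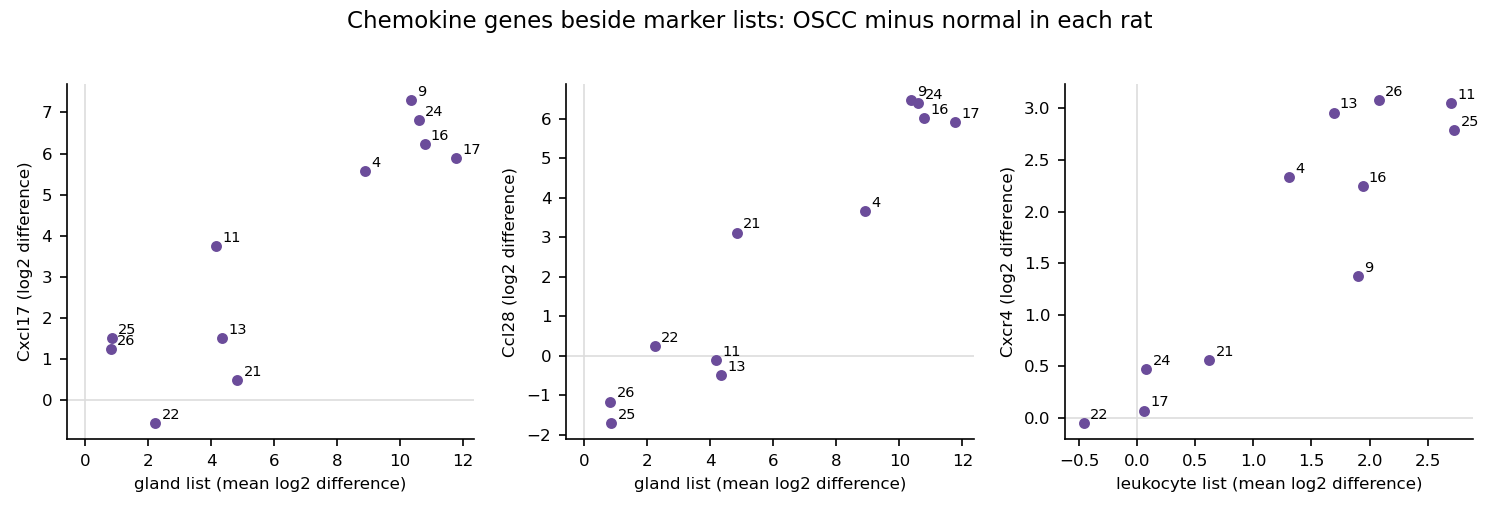
Log2 difference of Cxcl17, Ccl28 and Cxcr4 (y axes) against the mean log2 difference of a marker list (x axes, gland or leukocytes), OSCC minus normal; each point is 1 animal, with its number. Animals 4, 9, 16, 17 and 24 form a separate cluster in gland genes, from 8.90 upwards, and animals 17, 21, 22 and 24 have the lowest Cxcr4 and leukocyte differences.

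Cxcl14 (chr17:14295398-14295457, rn4), a chemokine of resting epithelium, was well above background on all 22 arrays. The lowest, median and highest log2 signals were 1.70, 2.05 and 2.50 in normal tissue and 2.08, 2.73 and 3.71 in OSCC. The OSCC of 7 animals lay above every normal piece and none lay below. Cxcl14 differed by 0.60 ± 0.17 log2 units (SE), or 1.52-fold, with a limma adjusted p of 0.017 and with OSCC higher in 9 of 11 animals. The 2 exceptions were small, -0.09 in animal 13 and -0.18 in animal 21, and the widest difference was 1.68 in animal 11. With slide as a random block the limma adjusted p was 0.065, and with normexp background correction the difference was 0.20 with a limma adjusted p of 1.0.

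Few stratified epithelium genes were called. Of 12 on the array 1 rose (Dsg3, a desmosomal cadherin) and 1 fell (Krt15, a basal keratin), and the median log2 difference was -0.04. Against the mean of this list the differences of Cxcl14, Ccl27 and Ccl20 had Pearson r of -0.27 (9 pairs), -0.38 (10 pairs) and -0.16 (10 pairs), with Spearman rho of -0.22, -0.22 and -0.19, after animal 24, and for Cxcl14 also animal 11, stood apart from the rest. None passed the test, with permutation p between 0.29 and 0.66, exact for Cxcl14, and adjusted p of at least 0.57 over 6 relations. Animal 24 had the lowest epithelial mean difference (-2.40), and its part in the differences of its chemokine genes was not tested.

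Cxcr4, the receptor for Cxcl12 on leukocytes and on many carcinoma cells, was called higher in OSCC, and it kept the call without any 1 animal. Cxcl12 was bright in both tissues and was not called with either of its probes. Cxcr4 (chr13:41308900-41308959, rn4) was well above background on all 22 arrays. Its lowest, median and highest log2 signals were -1.71, -1.36 and -0.50 in normal tissue and -1.42, 0.92 and 1.48 in OSCC. The OSCC of 8 animals lay above every normal piece, and those of animals 17, 22 and 24 lay inside the normal range. The log2 difference was 1.72 ± 0.35 (SE), or 3.29-fold, with a limma adjusted p of 0.0027 and with OSCC higher in 10 of 11 animals. It lay between 1.58 and 1.89 when 1 animal was left out, and it stayed called with normexp background correction (1.53, limma adjusted p 0.0037) and with slide as a random block (limma adjusted p 0.011). In animals 4 and 9 the differences were 2.33 and 1.37, and over the 9 pairs scanned on different days the mean was 1.69 (limma adjusted p 0.017).

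Leukocyte genes, markers of the cells that carry Cxcr4 in most tissues, were measured beside it. Of 10 such genes 7 rose and 0 fell, with a median log2 difference of 1.5. Cd52 was lower by less than 2-fold (limma adjusted p 0.014). The mean level of the list ranged from -0.48 to 0.64 in normal tissue and from -0.07 to 2.42 in OSCC. Itgb2, an integrin chain shared by leukocytes, rose by 2.62 ± 0.47 on the log2 scale, and all 10 genes were above background in both tissues. Over 11 pairs the Cxcr4 difference and the mean leukocyte difference had a Pearson r of 0.91 (permutation p 0.00031, adjusted 0.0019) and a Spearman rho of 0.85 (permutation p 0.0018, adjusted 0.011). Without animals 17 and 22, the farthest from the median, r was 0.83, and over the 9 pairs scanned on different days r was 0.95 with an adjusted exact permutation p of 0.0063. Without animals 21, 22 and 24 it was 0.81 with an adjusted exact permutation p of 0.13. The widest gap in Cxcr4 was 28.0% of its range, and within the 6 pairs above that gap r was 0.51 (exact permutation p 0.29) and rho 0.37 (exact permutation p 0.50). The part of leukocyte number in the Cxcr4 difference was not tested.

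Cxcl12, the stromal ligand of Cxcr4, was read by a probe annotated to transcript variant 1 (chr4:153510285-153510344, rn4) and by one annotated to transcript variant 3 (chr4:153516205-153516264). The last 30 bases of the probes are shown because the probes are annotated to different transcript variants. The motif AATAAA, in capitals, which has the sequence of a polyadenylation signal, is in the first of these stretches alone. Whether it acts as such a signal was not tested.
Cxcl12 transcript variant 1 probe: tatttacctgaAATAAAatctactagttgt
Cxcl12 transcript variant 3 probe: ctgtctcccagataatgtgaaaatggtcca

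The variant 1 probe had lowest, median and highest log2 signals of 0.54, 1.18 and 1.52 in normal tissue and -0.26, 0.92 and 2.67 in OSCC. The OSCC pieces spread to both sides of the normal range, with 2 above it (animals 24 and 25) and 2 below (animals 17 and 21). The log2 difference was -0.12 ± 0.25 (SE, limma adjusted p 0.70), higher in OSCC of 5 animals and lower in 6. With the variant 3 probe the values were 0.63, 1.12 and 1.58 in normal tissue and -0.18, 0.55 and 1.39 in OSCC. Here 7 OSCC pieces lay below every normal piece and none above, and only animals 22 and 24 had the higher signal in OSCC. The log2 difference was -0.54 ± 0.18 (SE), 1.45-fold lower, with a limma adjusted p of 0.035, which was under the 2-fold limit and became 0.087 with slide as a random block. The variant 3 minus the variant 1 difference was -0.41 ± 0.57 (SD, n = 11) and between -1.43 and 0.26, below 0 in 7 animals, and the pair differences of the probes had an r of 0.77 over 11 pairs, given as a description.

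Fibroblast genes, markers of the cells that make much of the Cxcl12 of connective tissue, were higher in OSCC. Of 11 such genes 6 were called higher and 0 lower, with a median log2 difference of 1.16. Limma gave 0 of them lower at an unadjusted p below 0.05. Of 10 endothelial genes 0 were called by limma or the methods' t-test. Their median was -0.39 and their lowest difference -0.64, so the 2-fold limit alone fixed this. By limma 5 were lower and 0 higher at an unadjusted p below 0.05. Among them Pecam1, Vwf, Cldn5 and Kdr had limma adjusted p of 0.01, 0.019, 0.023 and 0.04. The Cxcl12 variant 1 difference and the fibroblast mean had a Pearson r of 0.61 in the 9 pairs left after animals 17 and 24, which stood apart (exact permutation p 0.072, adjusted 0.21), a Spearman rho of 0.45 (exact permutation p 0.23) and an r of 0.54 without animals 11 and 25.

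Ligand and receptor differences were set against each other in 4 systems. Within each animal the receptor difference was subtracted from the ligand difference, and these contrasts were tested by a two-sided exact sign-flip permutation test with Benjamini-Hochberg adjustment. The Ccl28 difference exceeded the Ccr10 difference by 3.47 ± 3.2 log2 units (SD, n = 11, above 0 in 9 animals, exact p 0.0098, adjusted 0.020). Ccl28 was above background on 0 normal arrays and Ccr10 on 3 normal and 2 OSCC arrays, so this contrast rests largely on signals at background, and with normexp background correction it was 1.17 (adjusted exact p 0.027). The Cxcl12 difference fell short of the Cxcr4 difference, with -1.84 ± 1.48 (below 0 in 9 animals, exact p 0.0068, adjusted 0.020). For Ccl20 minus Ccr6 the value was -0.16 ± 0.82 (5 above and 6 below 0, exact p 0.52, adjusted 0.52). For Ccl27 minus Ccr10 it was 0.49 ± 0.99 (7 above 0, exact p 0.13, adjusted 0.18). Within the 9 pairs scanned on different days the first and second contrasts were 2.93 and -1.83, each with an adjusted exact p of 0.078, and without animals 21, 22 and 24 the first was 3.05 with an adjusted exact p of 0.14.

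**Figure D3:**
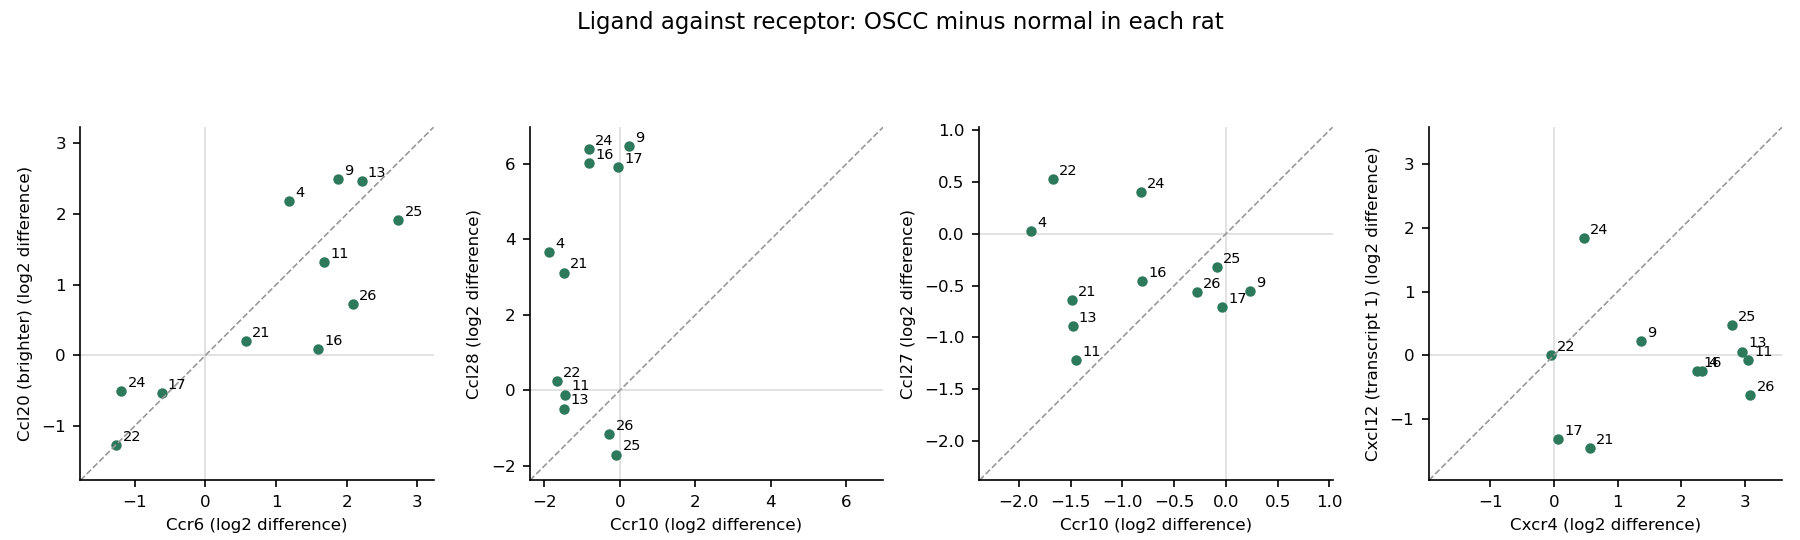
Log2 difference of a ligand (y axis) against that of its receptor (x axis), OSCC minus normal, with 1 numbered point for each of 11 animals; on the dashed line both differ by the same amount. Ccl20 and Ccr6 lie along the line, Ccl28 lies above it in 9 animals and Cxcl12 below it in 9.

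Other genes of these axes were mostly not called. Of 16 on the array 2 rose and 0 fell, with a median log2 difference of 0.23. By limma 2, Mif and Hmgb1, were lower at an unadjusted p below 0.05, Hmgb1 also after adjustment (limma adjusted p 0.036). Rgs1, which damps chemokine receptor signalling in lymphocytes, rose by 2.22 ± 0.48 on the log2 scale (limma adjusted p 0.0037), and Hif1a, a hypoxia factor known to induce Cxcr4, by 1.64 ± 0.3 (limma adjusted p 0.0015). Ackr3, the scavenging receptor of Cxcl12, differed by 0.15 ± 0.18, and Dpp4, the protease that inactivates Cxcl12, by -0.19 ± 0.22. Dpp4 was well above background on only 1 normal and 4 OSCC arrays, so its value rests largely on signals at background. Ccr3, a further receptor of Ccl28, was not above background on any array. Mif, another Cxcr4 ligand, had the lowest difference of the list, -0.36 ± 0.14.

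Among 12 other homeostatic chemokines and receptors 5 rose and 0 fell, with a median log2 difference of 0.53. Ccl25 was lower by limma at an unadjusted p below 0.05, but it was not above background on any array. Cxcl13, the B cell chemokine of lymphoid follicles, had the largest, 3.61 ± 0.83 on the log2 scale (limma adjusted p 0.0054). Cxcr6 rose by 2.84 ± 0.47 and its ligand Cxcl16 by 1.19 ± 0.3. Ccr7, the receptor that leads cells to lymph nodes, rose by 1.71 ± 0.37, whereas its ligands Ccl19 (0.22 ± 0.35) and Ccl21 (0.26 ± 0.28) were not called. Cxcr6 and Ccr7 were each well above background on only 2 normal arrays, so the sizes of their rises rest largely on normal signals at background. Cx3cr1 was above background in 0 normal and 8 OSCC pieces, with a bound of 1.32-fold higher in OSCC and its ligand Cx3cl1 at -0.22 ± 0.18. Of 11 T and B cell genes 7 rose and 0 fell (0 lower at an unadjusted p below 0.05 by limma, median 1.35). Among those that rose were Jchain and Mzb1 of antibody-secreting cells, with bounds of 4.55-fold and 11.9-fold higher. Of 7 neutrophil genes 5 rose and 0 fell, with a median of 2.95. Ngp was lower by less than 2-fold (limma adjusted p 0.047), but it was not above background on any array. The part of these cells in the chemokine receptor results was not tested.

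Animal by animal, the genes fell into patterns that did not run together. Cxcr4, Ccr6 and Ccl20 had their lowest differences in animals 17, 22 and 24, whereas Ccl28 and Cxcl17 were among their highest in animals 17 and 24 and were 0.25 and -0.55 in animal 22. In animals 25 and 26 Cxcr4 was at 2.79 and 3.08, Ccr6 at 2.73 and 2.09, Ccl28 at -1.70 and -1.16, and Cxcl17 at 1.52 and 1.25. In animals 4 and 9 all 5 genes differed by more than 1 log2 unit.

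**Figure D4:**
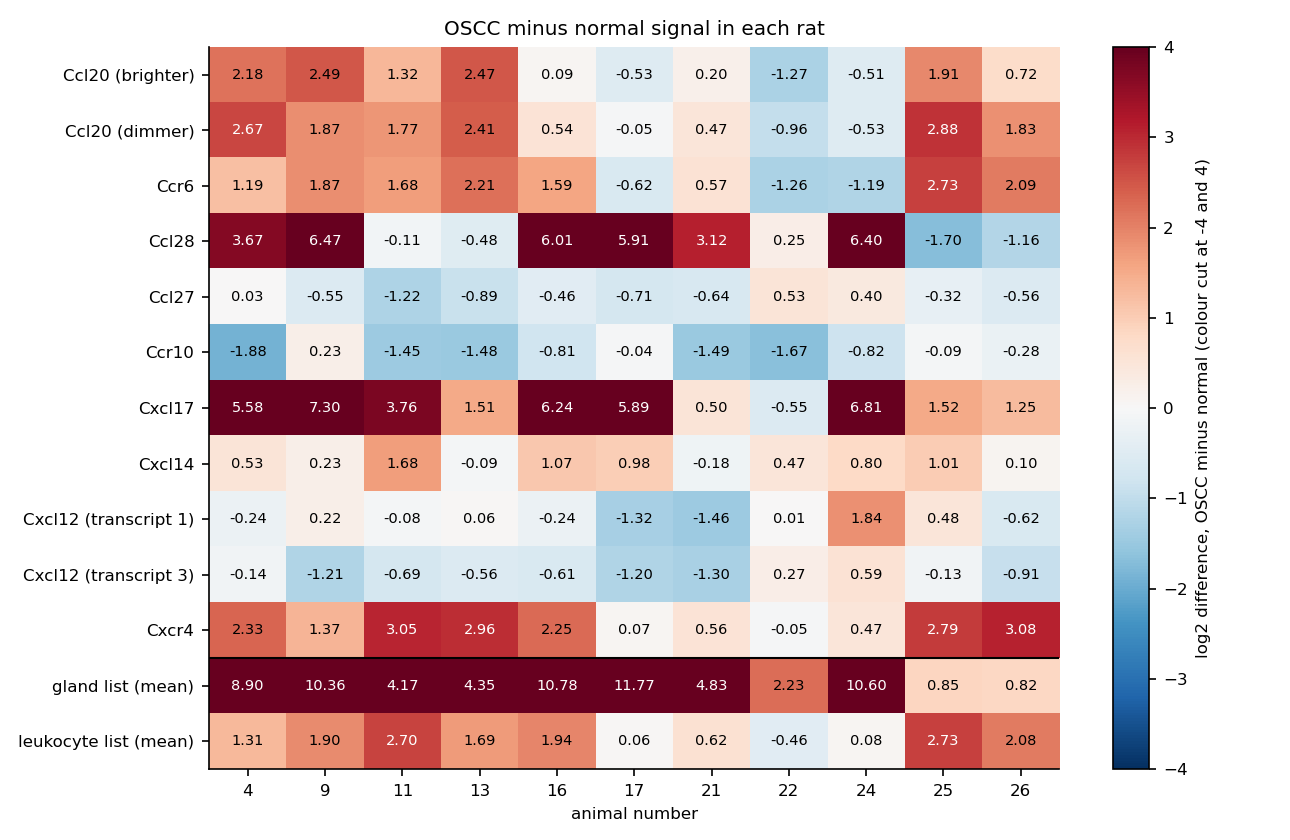
Log2 difference, OSCC minus normal, for each probe (rows) in each of 11 animals (columns), with the mean of the gland and leukocyte lists below the line; red is higher in OSCC, and colors are cut at -4 and 4. Ccl28, Cxcl17 and the gland list are all strongly red in animals 4, 9, 16, 17 and 24. The gland list is so in 11, 13 and 21 too, as are Cxcl17 in 11 (3.76) and Ccl28 in 21 (3.12). Cxcr4, Ccr6 and the leukocyte list are pale or blue in 17, 22 and 24, and pale in 21.

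The genes whose pair differences were most like those of each gene were ranked by Pearson r over 11 pairs, among 11641 genes well above background on at least 11 arrays, as a description. For Cxcr4 they were Adamts7, Fam176b and Vegfc (r of 0.98 each), and for Ccr6 Tnfaip8, Tnfrsf18 and Nup54 (0.98 each). For the brighter Ccl20 probe they were Bloc1s2 (0.92), Ddx47 and Ms4a11 (0.91 each). Cxcl14 had no gene as close, with Acsl4 at 0.80 and Sostdc1 and Cldn1 at 0.79. The Cxcl12 variant 1 probe ran with Epb4.1l2 (0.95), Tek, an endothelial receptor, and Pcdhb14 (0.91 each), and the variant 3 probe with Depdc2 (0.96), Podxl (0.95) and Cyyr1 (0.94). Ccl28, Ccl27, Ccr10 and Cxcl17 were above background on too few arrays and were not ranked.

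**Figure D5:**
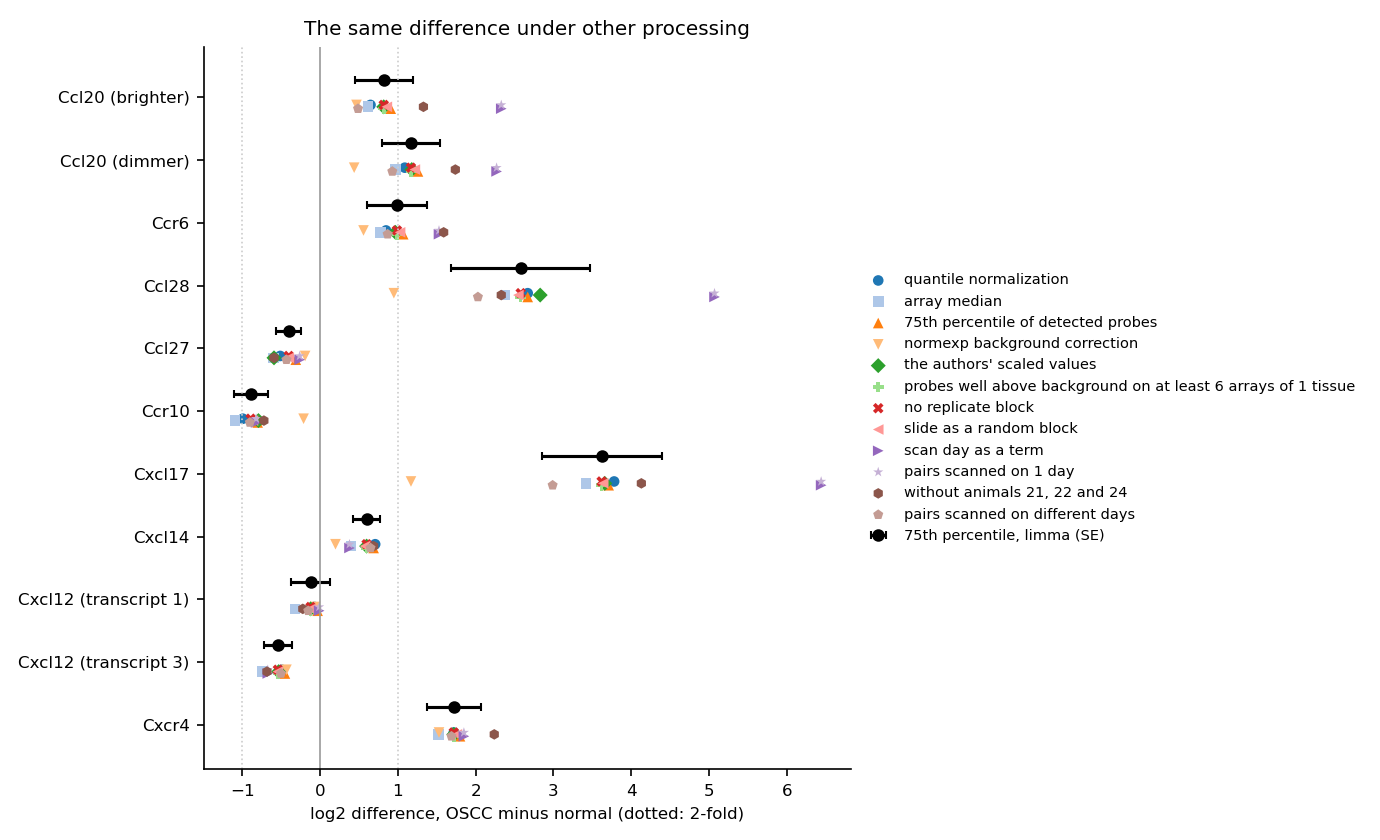
Log2 difference, OSCC minus normal, of each probe (rows) under the main processing (black, with SE) and under other scalings, filters, fits and sets of pairs (colors); dotted lines mark 2-fold. Values in 2 pairs scanned on 1 day, with the scan day term that gives the same estimates, lie farthest right for Cxcl17 and Ccl28. Normexp background correction, with its offset of 50 units, lies nearest 0 for most probes.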

How the data were processed

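Total RNA of 11 OSCC and 11 adjacent normal tongue pieces was hybridized to Agilent Rat GE 4x44K v3 arrays. The authors used Agilent Feature Extraction 9.5.3.1 (per the file headers), which subtracts background and removes spatial trends, so the deposited intensity is a processed signal in linear arbitrary units with no scaling across arrays. A ratio of that signal to the array's 75th percentile was deposited as well and served as an alternative. Here control spots and 9196 outlier spots (0.975%) were dropped, each probe took the mean log2 signal of its spots, less the 75th percentile of its array. That percentile was 236.8 to 654.9 units on normal and 338.7 to 1414 on OSCC arrays. A probe was well above background where at least 50% of its spots were, and no dim probe was removed. Precision is limited by the number of arrays.

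Tissues were compared by limma 3.58.1 under R 4.3.3. The model held a term for rat and one for tissue, and p was adjusted by Benjamini-Hochberg over 30367 probes. The methods name Student's t-test, run here as the methods' t-test. Pairs come from the same animal, and the deviations of its arrays correlated between -0.21 and 0.24 (median -0.02). Each rat gave separate pieces. Relations used 100000 permutations, or all of them under 10 pairs, and stayed within the larger cluster where a gap exceeded 30% of the range. The steps were tested on simulated data. A bound sets the brighter group's mean against the dimmest signal well above background on each array of the dim group. Pieces of the brighter group that were not above background enter that mean at their own signal. Where there are such pieces, the bound is not a strict lower limit. Named genes were all 9 genes, and from the lists the extremes and those on which a result turns; some others were named after their values were seen. Absent list genes were looked up through RefSeq accessions. One gene of the list upstream of Ccl20 is not reported here, so its counts and means cover the other 16 on the array. The genes and lists were chosen with earlier results of these data known. Alternatives were scaling, background (normexp with an offset of 50 units), filter, batch terms, tests and omitted animals. Those by pairs scanned on different days and the unadjusted scan day test were added after seeing the data. Quantitative PCR and methylation were not analysed here.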

Additional observations from a re-analysis of the deposited data

How the results depend on the processing

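No called gene changed direction under any alternative run, and 246 of 284 values of single probes stayed on their side of the limits. Many of these belong to probes not called in the main fit, which had no call to lose. All 26 values that lost a call belong to the dimmer Ccl20 probe, Ccl28, Cxcl17 and Cxcr4. With 1 animal left out, that Ccl20 probe changed its call in 6 of 11 fits, Ccl28 in 5, and Cxcl17 and Cxcr4 in 0. The main fit called 4201 probes. When 1 animal was left out the total called was 3649 to 4799, with 2 to 5 of the 9 genes higher (5 without animal 22) and 0 to 1 lower (Ccr10, without animal 9). Scaled to the array median, 1 gene (Ccr10) was called lower. Normexp background correction, with an offset of 50 units, left 1701 probes (686 higher, 1015 lower), with 1 gene (Cxcr4) called higher. The bright Cxcl14 differed by 0.20 with it, against 0.60 in the main fit. The part of the offset in these changes was not tested. With scan day as a term 3 probes and 0 genes were called. At an unadjusted p below 0.05 that term gave 9578 probes (1923 higher, 7655 lower), with 4 genes called higher (added after seeing the data). The 2 pairs scanned on 1 day gave 13265 probes (3059 higher, 10206 lower), with 5 genes higher, with the spread pooled over probes, and without animals 21, 22 and 24 there were 6924 probes (2639 higher, 4285 lower), with 4 genes higher. Without those 3 animals Ccl28 minus Ccr10 was 3.05 (exact permutation, adjusted p 0.14) and the Cxcr4 relation to leukocytes had r 0.81 (exact permutation, adjusted p 0.13). Over the pairs scanned on different days Ccl28 minus Ccr10 was 2.93 and Cxcl12 minus Cxcr4 -1.83. The cause was not tested. The pairing of pieces by animal is the block of the fit, and with no replicate block 4227 probes and the same number of genes, 3, were called; Ccl28, Cxcl17 and Cxcr4 stayed called. Dim signals limit Ccl28, Cxcl17, Ccr10 and Ccl27, which were above background on 0 to 5 normal arrays.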
